A study of Mus musculus with 10 samples.

Results

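Late cytokine transcripts were examined in mouse dendritic cells with and without CD14, the surface protein that hands bacterial lipopolysaccharide (LPS) to the TLR4 receptor. The genes were Tnf, Il6, Il10 and the interleukin-1 group Il1a, Il1b, Il1rn and Il18. They were chosen by name, with earlier results of these data known. Each probe set on the array that carries one of these symbols alone was taken. That gave 9 of 22690 probe sets and 7 of 12393 genes, and all 7 genes passed the filter on low signals that left 7474 genes for testing. Il1rn had 3 probe sets and the other 6 genes had 1 each.

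The series holds 10 arrays, 1 for each condition, of dendritic cells grown from bone marrow of C57BL/6 mice aged 6 to 8 weeks. CD14-deficient cells came from Cd14-/- mice on that background and the others from wild-type mice. In each genotype 2 cultures received smooth LPS at 1 µg/ml with thapsigargin at 50 nM and were taken at 48 or 60 h, 2 received LPS alone for 48 or 60 h, and 1 was left unstimulated and taken at 24 h. The study set out to find apoptosis genes under the control of NFAT, a transcription factor switched on by calcium. Thapsigargin inhibits the pump that returns calcium to the endoplasmic reticulum, so calcium rises in the cytosol without CD14. All cultures had grown for 7 to 10 days with supernatant of B16 tumour cells that secrete GM-CSF, and were used when over 90% of cells carried CD11c. The labels do not say how many mice gave the cells, no condition was repeated, and no culture had thapsigargin alone.

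These genes encode secreted proteins that shape the response to bacteria. LPS bound to TLR4 activates NF-κB, which drives transcription of Tnf, Il6, Il1a and Il1b, and CD14 also takes part in TLR4 uptake and, in dendritic cells, in a calcium signal that reaches NFAT. TNF and IL-1 act on neighbouring cells to spread inflammation, and IL-6 drives fever and the acute phase through STAT3. IL-1β and IL-18 are made as inactive precursors that caspase-1 cuts in the inflammasome, so their transcript does not give the amount of active protein. IL-10 and the IL-1 receptor antagonist, encoded by Il1rn, restrain the response.

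The promoters of Tnf, Il6 and Il18 are shown because they stand for 3 different late patterns: a Tnf signal lower on every stimulated array without CD14, an Il6 level that LPS raised in both genotypes, and an Il18 level with no call in any comparison. Each is the stretch of 250 bases before the annotated start in RefSeq (GRCm38.p6). Tnf lies at chr17:35199367-35202007 and its promoter at chr17:35202008-35202257 on the minus strand. Il6 lies at chr5:30013114-30019975 and its promoter at chr5:30012864-30013113 on the plus strand. Il18 lies at chr9:50554700-50581841 and its promoter at chr9:50554450-50554699 on the plus strand. Capitals mark matches, on either strand, to GGG followed by any 5 bases and CC, the core of NF-κB sites, or to GGAAA, the core of NFAT sites.
Tnf: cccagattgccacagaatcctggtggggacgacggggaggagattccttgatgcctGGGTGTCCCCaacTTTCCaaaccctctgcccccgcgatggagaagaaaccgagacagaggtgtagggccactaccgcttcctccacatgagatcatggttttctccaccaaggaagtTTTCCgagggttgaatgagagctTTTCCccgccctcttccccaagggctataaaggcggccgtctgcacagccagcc
Il6: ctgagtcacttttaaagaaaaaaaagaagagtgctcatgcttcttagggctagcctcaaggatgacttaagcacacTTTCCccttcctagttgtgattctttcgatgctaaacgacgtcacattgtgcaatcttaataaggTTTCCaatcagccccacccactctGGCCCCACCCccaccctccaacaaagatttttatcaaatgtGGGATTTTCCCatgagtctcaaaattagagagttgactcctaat
Il18: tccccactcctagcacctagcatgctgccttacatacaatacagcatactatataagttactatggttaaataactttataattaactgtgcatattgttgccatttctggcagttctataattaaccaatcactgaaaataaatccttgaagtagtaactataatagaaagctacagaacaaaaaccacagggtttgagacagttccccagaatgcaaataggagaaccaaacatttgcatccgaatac

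Read on both strands, the Tnf stretch held 1 match to the NF-κB core and 3 to GGAAA, with TATAAA starting at position -29 from the start site. The Il6 stretch held 3 matches to the NF-κB core, of which those starting at -44 and -43 overlap each other and 1 of the 3 matches to GGAAA. It also held the AP-1 motif TGANTCA, the cyclic AMP element core ACGTCA and the C/EBP motif TTNNGNAA, 1 match each. The Il18 stretch held neither the NF-κB core nor GGAAA. Such short motifs are common: of 32841 mouse promoters of the same length, 45.8% held the NF-κB core, 55.6% GGAAA, 36.9% TTNNGNAA, 12.4% TATAAA, 6.75% TGANTCA and 6.47% ACGTCA. Promoter entries matched 6 of the 7 genes, at 8 start sites. Il10 lies at chr1:131019845-131024970, Il1a at chr2:129299609-129310186, Il1b at chr2:129364569-129371164 and Il1rn at chr2:24336860-24351491.

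Signals are the authors' deposited MAS5 intensities, scaled to the same trimmed mean on every array. The lower quartile of all scaled signals, 13.4, served as a floor. The Cd14 signal was 1.85 to 7.35, under the floor, on all 5 CD14-deficient arrays, against 1499 in unstimulated and 15540 to 17730 in stimulated wild-type cells. Dendritic cell genes were present throughout, with signals of 750 to 7840 for Itgax (CD11c) and 5940 to 9820 for H2-Ab1 (MHC class II), while Flt3 ran from 53.6 to 1150 and Cd209a was under the floor on 2 arrays. Macrophage genes were present as well, except Cd163, which was under the floor on all 10 arrays, and Mrc1, which was under it on 1. Among T and NK cell markers, Ncr1 was under the floor on all 10 arrays and Cd3e on 8. Markers of other cells were mixed. Neutrophil genes S100a8 (499 to 5950), Mmp8 (602 to 9580), Ngp and Camp were above the floor on all 10 arrays. Cxcr2 was under it on all 10, Mpo on 5, S100a9 and Elane on 3 and Ltf on 2. Mast cell genes Kit (148 to 1350) and Gata2 were above it on all 10. Ms4a2 was under it on all 10, Fcer1a on 8, Mcpt8 on 5 and Cpa3 on 1. Stromal Dcn reached 2710, while Col1a1 was under the floor on 9 arrays, Col3a1 on 7, Col1a2 on 3, and Dcn and Lum on 2. The CD14-deficient LPS array at 48 h stood apart, with a score of 60.42 on the second principal component against -25.02 to 5.12 elsewhere, and it gave the least cRNA of all, 15 µg. Its summed signals were the highest for mast cell and basophil markers (1855, against 316 to 809 elsewhere) and for B cell markers (521, against 63.9 to 236). Most of each sum came from 1 gene, Kit at 1350 and Ms4a1 at 341. On that array none of the 4 B cell markers was under the floor, and 1 of the 6 mast cell and basophil markers was. The summed dendritic cell signal was also the highest there, at 82190, against 48270 to 71330 elsewhere. Whether this culture held more of these cells was not tested. The B cell gene Pax5 was under the floor on 7 arrays. On the same CD14-deficient LPS array the 3'/5' ratio of Gapdh was 0.98, against 0.71 to 0.848. The wild-type LPS array at 60 h gave 19 µg and an actin 3'/5' ratio of 1.62, against 1.02 to 1.14. These 2 arrays alone had 18S rRNA control signals of 114 to 385 and 217 to 685, against 1426 to 12660 on the other 8. Both are used to compare the genotypes with LPS, and values without them are given where they change a result. The part of these signals in the results was not tested.

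Under LPS, CD14-deficient cells had lower signals than wild-type cells for Tnf, Il10 and Il1a at both times, while Il1b and Il18 differed by less than 1.3-fold at both times. Il6 was 2.99-fold lower at 60 h and 1.11-fold lower at 48 h. Il1rn was 4.73-fold lower at 48 h and 1.36-fold lower at 60 h. A model over all genes (limma, with Benjamini-Hochberg adjusted p under 0.05 as the threshold) called 2 of the 7 genes lower, Il10 and Il1a, and none higher. Il10 was tested only because it passed the filter on 3 stimulated wild-type arrays, the group in which it was high. With no filter neither Il10 nor Il1a was called. Of the 7474 genes tested, 5.18% were called, 2.61% lower and 2.57% higher. Since no condition was repeated, the error is the departure of the 4 stimulated conditions from a common shift between 48 and 60 h, and the p-values leave out how cultures or mice vary. CD14-deficient cells with LPS departed most from that shift, so errors and p-values that use those arrays may be too small. The median log2 change of the 7 genes was -1.18, that of Il1a, against 0.075 over all tested genes. The genes were chosen with earlier results of these data known, so these shares and medians describe them and do not test the set. In whole cultures, a smaller share of cells that make a cytokine and less of its RNA per cell cannot be told apart.

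**Figure D1:**
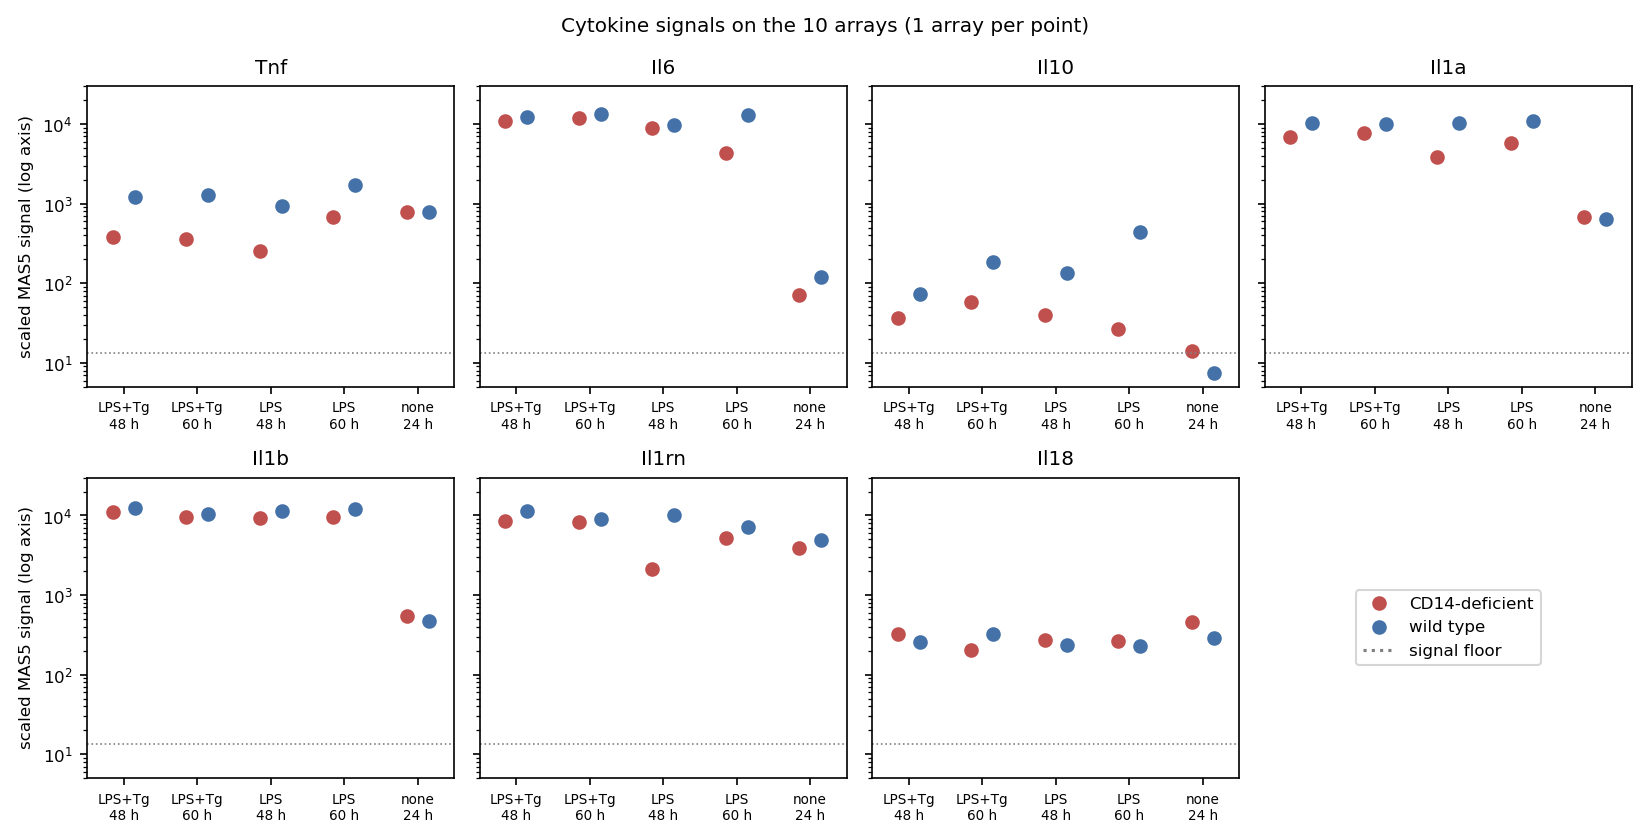
Scaled MAS5 signal of each gene on a log axis, by treatment and harvest time, with 1 point per array; CD14-deficient arrays are red, wild-type arrays blue, and the dotted line is the floor of 13.4. The red Tnf points lie at 254 to 678 under stimulation and the blue ones at 937 to 1721, while the Il1b points lie close together in each stimulated condition.

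Tnf encodes tumour necrosis factor, an early inflammatory cytokine. With LPS its signal was 254 and 678 in CD14-deficient cells at 48 and 60 h, against 937 and 1721 in wild-type cells. With LPS and thapsigargin it was 376 and 358 in CD14-deficient cells, against 1197 and 1300 in wild-type cells. Without stimulation it was 782.6 in CD14-deficient cells and 788.5 in wild-type cells. The 4 stimulated CD14-deficient arrays thus lay below all 4 stimulated wild-type arrays and below the unstimulated one of either genotype. How many of the 7474 tested genes separate in this way was not counted. Over the stimulated arrays, 723 of them were lower without CD14 at an unadjusted p under 0.05 (limma).

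The 4 matched pairs of stimulated arrays gave a Tnf level 3.69-fold lower (LPS 48 h), 2.54-fold lower (LPS 60 h), 3.18-fold lower (with thapsigargin, 48 h) and 3.63-fold lower (with thapsigargin, 60 h) in CD14-deficient cells. In the pairs with LPS alone, 2.19% of tested genes were at least 2-fold lower at both times, and 1.45% were 2-fold or more lower at one time and higher at the other. In the pairs with thapsigargin, 0.549% were at least 2-fold lower at both times. The fitted log2 change was -1.61 ± 0.38 (SE) with LPS alone, which did not pass over all genes (limma, adjusted p = 0.0683), and -1.76 ± 0.38 with thapsigargin (adjusted p = 0.608). A comparison of the genotypes over all 8 stimulated arrays, added after these values were seen, gave -1.69 ± 0.27 (3.22-fold lower, adjusted p = 0.0472), where 1.3% of tested genes were called lower. It is no independent support, since the pairs had been seen, and it called neither Tnf nor Il1a with no filter, with every probe set tested or with no intensity trend. With the 8 arrays paired by treatment and time, Tnf was called (adjusted p = 0.0318) and Il1a was not (adjusted p = 0.213), with 11 genes called. Without the 2 arrays of low cRNA yield, the LPS comparison sets a CD14-deficient array at 60 h against a wild-type array at 48 h and gave a Tnf change of -0.49, and that over stimulated cells gave -1.13 (adjusted p = 0.00726).

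Against unstimulated cells, LPS gave no call for Tnf in either genotype at these times. The log2 change from unstimulated cells was -0.92 ± 0.47 in CD14-deficient cells (limma, adjusted p = 0.303) and 0.69 ± 0.47 in wild-type cells (adjusted p = 0.356). The difference between these responses was -1.60 ± 0.66, with an adjusted p of 0.61.

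Il10 encodes an anti-inflammatory cytokine that acts through STAT3. With LPS its signal was 40.3 and 26.4 in CD14-deficient cells at 48 and 60 h, against 132.9 and 434.6 in wild-type cells. Thapsigargin with LPS gave 36.8 and 58.5 in CD14-deficient cells, against 72.9 and 184.9 in wild-type cells. Unstimulated CD14-deficient cells had 14.1, just above the floor, and unstimulated wild-type cells 7.44, under it. Stimulated CD14-deficient arrays all lay below stimulated wild-type arrays, a separation that was not counted over all tested genes. The highest value of the series was that of wild-type cells with LPS at 60 h.

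The fitted Il10 level with LPS was 7.36-fold lower in CD14-deficient cells (log2 -2.88 ± 0.58, limma, adjusted p = 0.0495). The gap was 3.29-fold at 48 h and 16.5-fold at 60 h. With no filter on low signals its adjusted p was 0.148. With thapsigargin the change was -1.32 ± 0.58 (adjusted p = 1). In wild-type cells LPS raised Il10 at least 17.9-fold over the floor (log2 4.17 ± 0.71, adjusted p = 0.0172). That call was lost with no filter and without either wild-type LPS array or any of the 4 thapsigargin arrays (adjusted p from 0.0522 to 0.0826). In CD14-deficient cells the log2 change from unstimulated was 1.21 ± 0.71 (adjusted p = 0.361), and the difference between the responses was -2.95 ± 1.00 (adjusted p = 0.566). With the wild-type unstimulated value held at the floor, the wild-type rise is at least as large as given. The difference of the responses is therefore -2.95 or further below 0.

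Il1a encodes interleukin-1α, an alarm cytokine that is active without cutting. With LPS its signal was 3810 and 5755 in CD14-deficient cells at 48 and 60 h, against 10180 and 11020 in wild-type cells. With LPS and thapsigargin it was 6772 and 7597 in CD14-deficient cells, against 10430 and 9975 in wild-type cells. Without stimulation it was 681.5 in CD14-deficient cells and 633.2 in wild-type cells. The genotypes did not overlap under stimulation, and every stimulated array of either genotype was above both unstimulated arrays. The share of all tested genes without such overlap was not counted.

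With LPS, Il1a was 2.26-fold lower in CD14-deficient cells (log2 -1.18 ± 0.19, limma, adjusted p = 0.0313), 2.67-fold at 48 h and 1.91-fold at 60 h. That call was lost with no filter on low signals. LPS raised it in both genotypes, 6.87-fold in CD14-deficient cells (log2 2.78 ± 0.23, adjusted p = 0.00692) and 16.7-fold in wild-type cells (log2 4.06 ± 0.23, adjusted p = 0.00109). The difference of these responses was -1.28 ± 0.32 with an unadjusted p of 0.00733 and an adjusted p of 0.494. With thapsigargin the genotype change was -0.51 ± 0.19 (adjusted p = 1). Over all 8 stimulated arrays, in the comparison added after the values were seen, it was 1.79-fold lower in CD14-deficient cells (log2 -0.84 ± 0.13, adjusted p = 0.0455).

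The calls of Il10 and Il1a with LPS depended on which arrays entered the fit. Leaving out the wild-type LPS array at 48 or 60 h, or any of the 4 thapsigargin arrays, left neither gene called (adjusted p 0.133 to 0.219 for Il10 and 0.112 to 0.244 for Il1a), while 2 to 7 genes of all tested were called in those fits. Leaving out CD14-deficient LPS cells at 48 h kept both calls (0.00634 for Il10, 0.00973 for Il1a) and added Il6, with 1324 genes called. With CD14-deficient LPS cells at 60 h left out, 4 of the 7 genes were called lower: Tnf, Il10, Il1a and Il1rn, with 3269 genes called. Without both arrays of low cRNA yield, the comparison sets a CD14-deficient LPS array at 60 h against a wild-type one at 48 h. Its time shift and error then come from the thapsigargin arrays alone, so its calls do not show what better arrays would give.

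**Figure D2:**
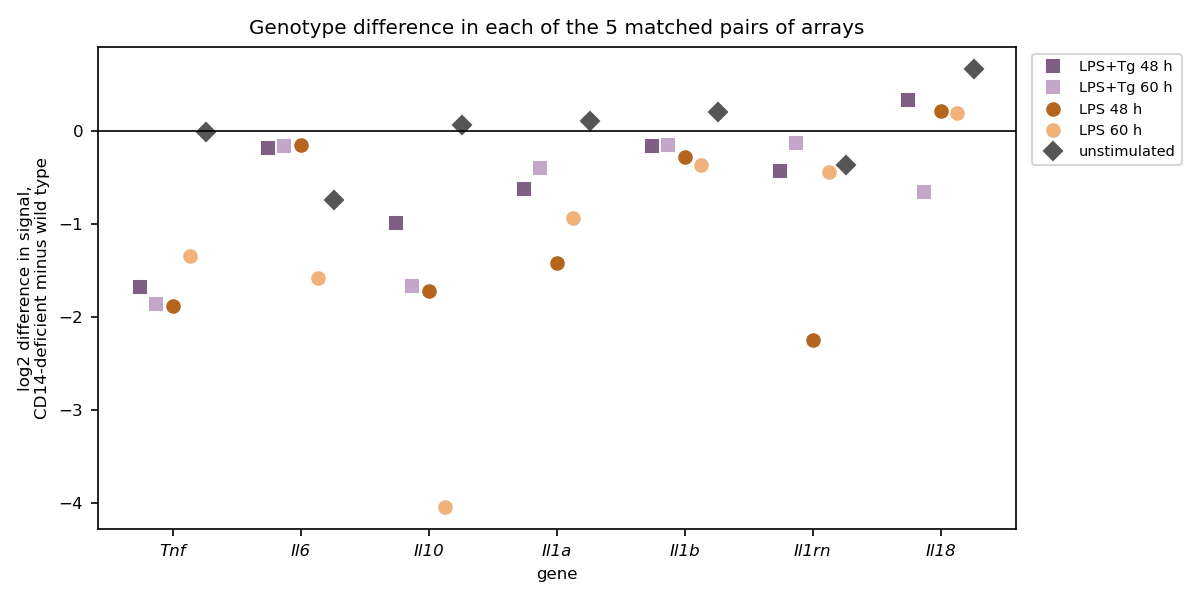
log2 difference in signal, CD14-deficient minus wild type, for each gene in the 5 pairs of arrays matched for treatment and time; squares have LPS and thapsigargin, circles LPS alone, and diamonds no stimulation. All 4 stimulated pairs lie below 0 for Tnf, Il6, Il10, Il1a, Il1b and, on its probe set of highest mean, Il1rn. For Il1b they do so by less than 0.4, and the unstimulated Tnf pair lies at -0.011. The share of all tested genes below 0 in these pairs was not counted.

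Il6 encodes interleukin-6. With LPS its signal was 8829 and 4347 in CD14-deficient cells at 48 and 60 h, against 9791 and 13010 in wild-type cells. Thapsigargin with LPS gave 10750 and 11900 in CD14-deficient cells, against 12190 and 13290 in wild-type cells. Unstimulated CD14-deficient cells had 71.2, against 119.3 in wild-type cells. Only the CD14-deficient LPS array at 60 h stood clearly below the other stimulated arrays.

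LPS raised Il6 by log2 6.44 ± 0.42 in CD14-deficient cells (limma, adjusted p = 0.00396) and by 6.56 ± 0.42 in wild-type cells (adjusted p = 0.00161). The difference of these responses was -0.12 ± 0.60 with a 95% interval of -1.58 to 1.34 (adjusted p = 0.964), and it changed sign to 0.088 on unscaled values. The genotype change with LPS was -0.87 ± 0.34 (adjusted p = 0.174). With the 48 h array of CD14-deficient LPS cells left out it was -1.49 (adjusted p = 0.00581), and with the 60 h array left out it was -0.24.

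Il1b encodes interleukin-1β. With LPS its signal was 9354 and 9440 in CD14-deficient cells at 48 and 60 h, against 11380 and 12190 in wild-type cells. With LPS and thapsigargin it was 10970 and 9463 in CD14-deficient cells, against 12260 and 10480 in wild-type cells. Without stimulation it was 546.5 in CD14-deficient cells and 472.7 in wild-type cells. Each pair under stimulation was lower without CD14, and the ranges of the genotypes overlapped.

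Il1b had the smallest spread of the 7 genes around the model, a residual SD of 0.115 on the log2 scale. LPS raised it 17.2-fold in CD14-deficient cells (log2 4.10 ± 0.18, limma, adjusted p = 0.0011) and 24.9-fold in wild-type cells (log2 4.64 ± 0.18, adjusted p = 0.000401). The genotype change with LPS was -0.33 ± 0.14 with a 95% interval of -0.68 to 0.03 (adjusted p = 0.205). The related cytokine Il1a, whose gene lies on the same chromosome, had a log2 change of -1.18 in the same comparison.

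Il1rn encodes the IL-1 receptor antagonist, which occupies the receptor without signalling. On the probe set with the highest mean, its signal with LPS was 2139 and 5232 in CD14-deficient cells at 48 and 60 h, against 10120 and 7092 in wild-type cells. Thapsigargin with LPS gave 8590 and 8349 in CD14-deficient cells, against 11550 and 9133 in wild-type cells. Unstimulated CD14-deficient cells had 3878, against 4981 in wild-type cells. The CD14-deficient LPS array at 48 h was the lowest of all 10, below both unstimulated arrays.

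All 3 Il1rn probe sets shared that low value but not its size. At 48 h with LPS, the CD14-deficient signal was 31-fold, 11.8-fold and 4.73-fold lower than wild type on the probe sets of lowest, middle and highest mean signal. At 60 h the log2 differences were 0.16, -0.48 and -0.44. No probe set passed as a fit over both times, with log2 changes of -2.40 ± 1.11, -2.02 ± 0.75 and -1.34 ± 0.43 (limma, adjusted p from 0.118 to 0.227 with every probe set tested). The array with the low values is the one of lowest cRNA yield, where 10 of 11 macrophage markers were below their level at 60 h by a median log2 of -1.81. The summed macrophage signal there was 8991, against 11170 to 22920 on the other stimulated CD14-deficient arrays and 26000 and 21410 in wild-type cells with LPS at 48 and 60 h. Wild-type cells with LPS at 60 h, whose array came next in cRNA yield, read 2288 on the probe set of lowest mean, against 8581 at 48 h. The part of yield and of macrophage RNA in these values was not tested.

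**Figure D3:**
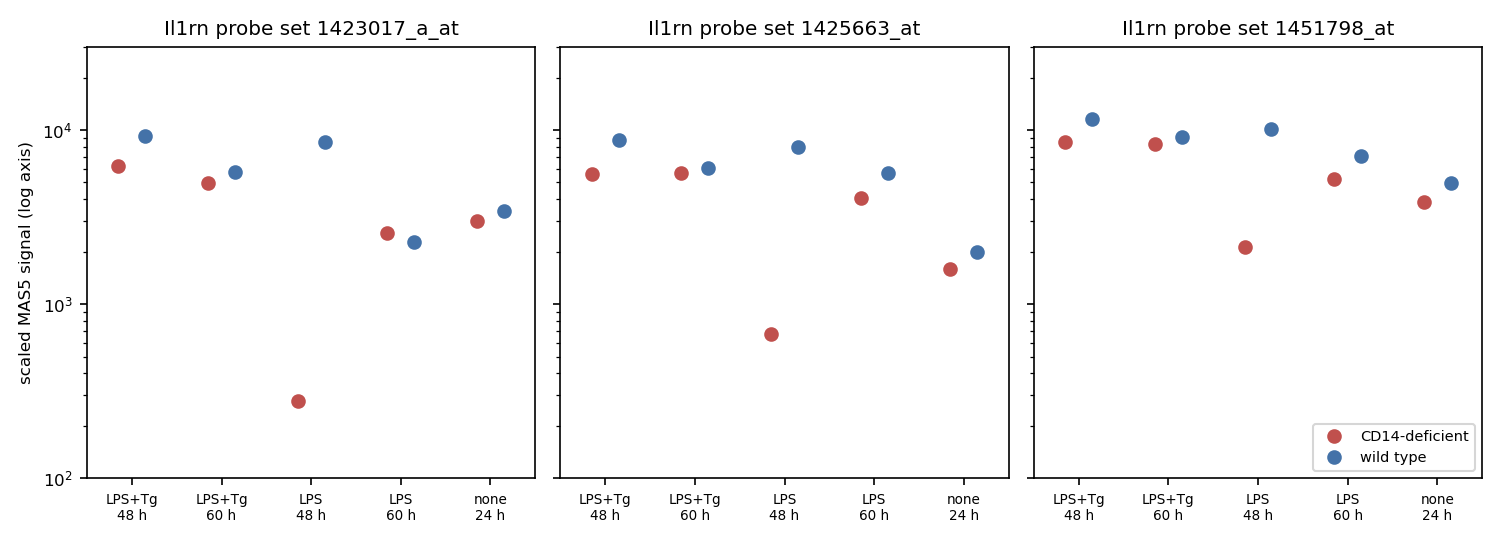
Scaled MAS5 signal of the 3 Il1rn probe sets on a log axis, by treatment and harvest time, with 1 point per array; CD14-deficient arrays are red and wild-type arrays blue. The CD14-deficient LPS array at 48 h is the lowest point of each panel, at 276, 676 and 2139.

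Il18 encodes interleukin-18, an inducer of interferon-γ that many cells store as a precursor. With LPS its signal was 271 and 263 in CD14-deficient cells at 48 and 60 h, against 233 and 229.8 in wild-type cells. With LPS and thapsigargin it was 323 and 206 in CD14-deficient cells, against 256 and 325 in wild-type cells. Without stimulation it was 464 in CD14-deficient cells and 292 in wild-type cells. Its values spanned 1.17 on the log2 scale over all 10 arrays, the narrowest span of the 7 genes, and the genotypes overlapped.

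The Il18 genotype change with LPS was 0.21 ± 0.28 with a 95% interval of -0.47 to 0.89 (limma, adjusted p = 0.661). The LPS change was -0.80 ± 0.34 in CD14-deficient cells (adjusted p = 0.236) and -0.33 ± 0.34 in wild-type cells (adjusted p = 0.54).

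Over the LPS responses as a whole, 3 of the 7 genes were called higher in CD14-deficient cells (Il6, Il1a and Il1b) and 4 in wild-type cells (Il6, Il10, Il1a and Il1b). In wild-type cells 3 were called with no filter, with a filter on 5 arrays (Il10 not tested) and in 6 of the 8 fits that left out 1 array, and 5 in the other two. The share of all tested genes called higher was 2.17% for CD14-deficient cells and 7.69% for wild-type cells. The median log2 change of the 7 genes was 1.21 without CD14 and 4.06 in wild-type cells, against 0.027 and -0.027 over all tested genes. Each response rests on 1 unstimulated array taken at 24 h, so time in culture and LPS cannot be told apart. For none of the 7 genes did the difference of the responses pass (limma, adjusted p from 0.494 to 0.964), nor for any of the 7474 genes, of which 613 had an unadjusted p under 0.05. With CD14-deficient LPS cells at 60 h left out, 3 of the 7 differences passed (Tnf, Il1a and Il1rn), 6 of the 7 genes were called against unstimulated CD14-deficient cells, and 1352 differences passed over all genes. The fit without both arrays of low cRNA yield keeps 1 LPS array per genotype, so its differences are not read further.

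**Figure D4:**
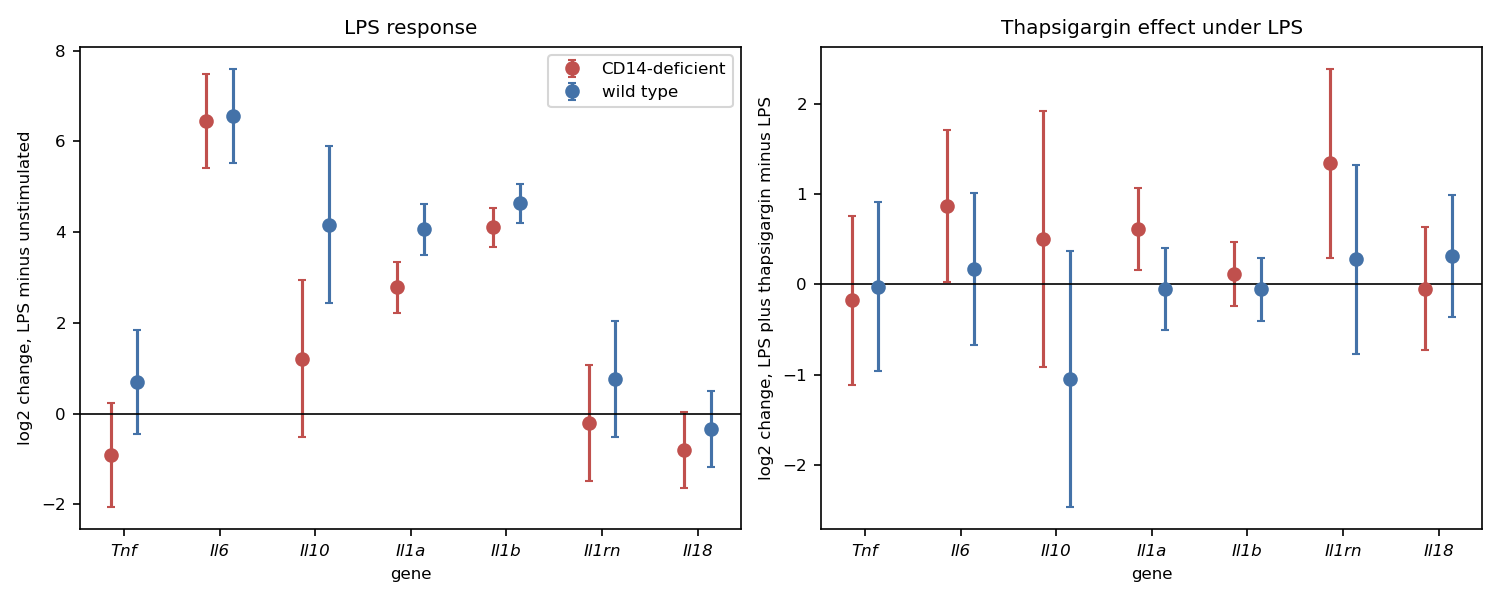
Fitted log2 changes of the 7 genes, with LPS against no stimulation in the left panel and with thapsigargin added to LPS in the right one; points are estimates, bars 95% intervals, CD14-deficient red and wild type blue. For Il6 the red and blue LPS responses are 6.44 and 6.56, and for Il10 they are 1.21 and 4.17.

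Thapsigargin was added to ask whether calcium replaces what CD14 gives. In CD14-deficient cells it left none of the 7 genes called, where 6.62% of tested genes were. The largest log2 changes against LPS alone were 1.34 ± 0.43 for Il1rn (limma, adjusted p = 0.109), 0.87 ± 0.34 for Il6 (adjusted p = 0.164) and 0.62 ± 0.19 for Il1a (adjusted p = 0.0983). They differ between the times: Il1rn was 4.02-fold higher at 48 h and 1.60-fold at 60 h, and Il6 was 1.22-fold higher at 48 h and 2.74-fold at 60 h. Il1a was 1.78-fold and 1.32-fold higher with thapsigargin. Tnf had a change of -0.18 ± 0.38 (adjusted p = 0.793), the mean of a 1.48-fold higher signal at 48 h and a 1.89-fold lower one at 60 h.

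The thapsigargin values of CD14-deficient cells and the genotype values share the same CD14-deficient LPS arrays, and a low reading there raises one and lowers the other. With the 48 h array of CD14-deficient LPS cells left out, 3 of the 7 thapsigargin changes passed: Il6 at 1.49, Il10 at 1.43 and Il1rn at 0.55. With the 60 h array left out, 2 passed, Il1a at 0.88 and Il1rn at 2.13. Without both arrays of low cRNA yield, CD14-deficient LPS cells keep only the 60 h array. The changes were then -0.87 for Tnf and between 0.34 and 1.45 for Il6, Il10, Il1a and Il1rn.

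In wild-type cells thapsigargin changed none of the 7 genes past the threshold, and 0.0535% of tested genes were called. The widest log2 change there was that of Il10, -1.05 ± 0.58 (limma, adjusted p = 0.578), with a signal 1.82-fold lower at 48 h and 2.35-fold lower at 60 h. The other 6 lay between -0.056 and 0.32. The difference of the thapsigargin effects between the genotypes passed for no gene, with 994 of 7474 under an unadjusted p of 0.05. For Il1a it was 0.67 ± 0.26 (adjusted p = 0.362) and for Il10 1.56 ± 0.82 (adjusted p = 0.456). With thapsigargin in both genotypes, none of the 7 differed between them past the threshold, and 0.0268% of tested genes did, all of them lower. The 7 log2 changes there lay between -1.76 for Tnf and -0.15 for Il1b. Those of Tnf, Il10 and Il1a passed (adjusted p = 0.01, 0.0425 and 0.035) in the fit without both arrays of low cRNA yield, which leaves the estimates as they were and lowers the error.

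Between 48 and 60 h no gene passed over the 4 stimulated conditions (limma), with 734 under an unadjusted p of 0.05. The log2 shifts were 0.59 ± 0.27 for Tnf (adjusted p = 0.537) and 0.78 ± 0.41 for Il10 (adjusted p = 0.579), and between -0.092 and 0.20 for the other 5. Il10 was higher at 60 h in 3 of the 4 stimulated conditions and lower in CD14-deficient cells with LPS. With LPS alone, Tnf was 2.67-fold higher at 60 h without CD14 and 1.84-fold higher in wild-type cells. At least 2-fold differences between the times were common there, at 17.4% of tested genes in CD14-deficient cells and 6.57% in wild-type cells.

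**Figure D5:**
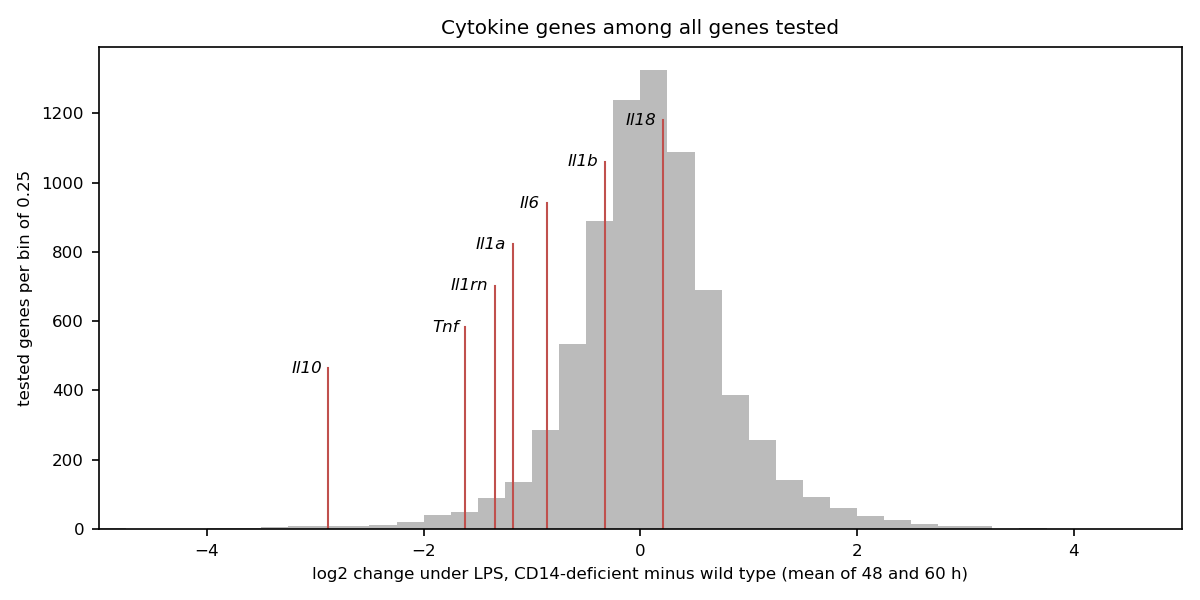
Histogram of the fitted log2 change with LPS, CD14-deficient minus wild type, over the 7474 tested genes in bins of 0.25; each red line marks a cytokine gene at its own change, and line heights only space the names. Il10 lies at -2.88, Tnf at -1.61 and Il1a at -1.18, while Il18 lies at 0.21 near the middle.

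Ordering the 6 combinations of genotype and treatment by their fitted level showed which steps exceed their error, taken as a 95% interval of the step that leaves out 0. For Il1a, wild-type cells with LPS and with thapsigargin came first and did not differ beyond error, followed by CD14-deficient cells with thapsigargin (lower by 0.51), then with LPS alone (lower by a further 0.62) and then the unstimulated cells (by 2.78). For Il6, CD14-deficient cells with LPS alone stood 0.87 below wild-type cells with LPS and 5.70 above unstimulated wild-type cells, and the other neighbours did not differ beyond error. For Il1b, the single such step was that of 4.10 between CD14-deficient cells with LPS and unstimulated CD14-deficient cells. For Tnf, Il10, Il1rn and Il18 no neighbours in the order differed beyond their error. The genotypes with LPS are not neighbours for these genes. Between them the 95% interval left out 0 for Tnf (-2.549 to -0.679), Il10 (-4.296 to -1.464) and Il1rn (-2.386 to -0.295). For Il18 it held 0 (-0.474 to 0.885). The Tnf order ran from wild-type cells with LPS and with thapsigargin, through the unstimulated cells, to CD14-deficient cells with LPS and with thapsigargin. These intervals are not adjusted for the number of genes tested.

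Across the 10 arrays, Il6, Il1a and Il1b followed each other, with Pearson r of 0.987 for Il6 and Il1b, 0.969 for Il1a and Il1b and 0.966 for Il6 and Il1a, which all share the step between unstimulated and stimulated arrays. Tnf had r of -0.031 with Il6 and 0.52 with Il10. Among 1672 tested genes whose values spanned at least 2 on the log2 scale, those most like Il6 were Thbs1, Cxcl1 and Hdc (r 0.993, 0.993 and 0.992). Those most like Il1a were Ptgs2, Dnajc1 and Cxcl1 (0.990, 0.985 and 0.982), and those most like Il1b were Hdc, Il12a and Fbxo32 (0.995, 0.994 and 0.991). Tnf was most like Ralgds, Hgsnat and Zeb2 (0.866, 0.847 and 0.846), and Il10 most like Rffl, Tjp1 and Csf3 (0.941, 0.927 and 0.926). Il1rn was most like Card19, Tmem43 and Kdr (0.984, 0.977 and 0.977), and Il18 most like Cd209a, Lmnb1 and Fcgrt (0.781, 0.773 and 0.757). These are descriptions over 10 arrays that share 2 genotypes and 3 treatments.

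Receptors and partners of these cytokines were read from lists, each with the 2 tested genes that changed most among those called, or, where none was called, the 2 of smallest p. Of the TNF partners, 1 of 9 tested genes was called lower with LPS in CD14-deficient cells, where 2.61% of all tested genes were, and 8 were not called (median log2 0.21). The gene was Tnfrsf1b, TNF receptor 2, with 4187 and 3140 in CD14-deficient cells against 8003 and 8816 in wild-type cells (log2 -1.21 ± 0.18, limma, adjusted p = 0.0283). Of the 7 tested genes that control the stability of TNF mRNA, none was called (median -0.23). Those of smallest p were Zfp36l1, which promotes decay of mRNAs with AU-rich elements, at 1.05 ± 0.37 (adjusted p = 0.142), and Tia1, which represses their translation, at 1.28 ± 0.47 (adjusted p = 0.153).

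Of the 6 tested genes for processing of IL-1β and IL-18, 1 was called higher and 1 lower (median -0.50), against 2.57% and 2.61% of all tested genes. Casp4, encoding the caspase that senses cytosolic LPS, had 1201 and 1410 in CD14-deficient cells against 3707 and 3041 in wild-type cells (log2 -1.37 ± 0.21, limma, adjusted p = 0.0293). Pycard, encoding the inflammasome adaptor ASC, had 4150 and 4966 in CD14-deficient cells against 1663 and 2348 in wild-type cells (1.20 ± 0.17, adjusted p = 0.0266). Of the 6 tested IL-1 and IL-18 receptors and inhibitors none was called (median 0.12). Sigirr, an inhibitory receptor of the family, stood at 1.19 ± 0.38 (adjusted p = 0.115) and Il18bp, which neutralises IL-18, at -1.01 ± 0.34 (adjusted p = 0.128). None of 6 tested IL-1 receptor signalling genes was called (median 0.14), with Tollip, an inhibitor of the pathway, at -0.49 ± 0.15 (adjusted p = 0.102) and Traf6, its ubiquitin ligase, at 1.02 ± 0.35 (adjusted p = 0.13). Of the other IL-1 family ligands, 2 of 6 were on the array and neither passed the filter.

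Of the 10 tested genes for IL-6 and IL-10 receptors and the STAT3 pathway, 2 were called higher in CD14-deficient cells with LPS (median 0.18), against 2.57% of all tested genes. Il10ra, the ligand-binding chain of the IL-10 receptor, had 590.8 and 468.3 in CD14-deficient cells against 177.7 and 216.7 in wild-type cells (log2 1.42 ± 0.25, limma, adjusted p = 0.0387). Tyk2, a kinase bound to the IL-10 receptor, had 997 and 720 in CD14-deficient cells against 309.0 and 277 in wild-type cells (1.54 ± 0.21, adjusted p = 0.0247). Il10 itself was lower in the same cells. With thapsigargin added, Il10ra, Tyk2 and Pycard fell in CD14-deficient cells, by 1.49 ± 0.25 (adjusted p = 0.0272), 1.06 ± 0.21 (adjusted p = 0.0405) and 1.17 ± 0.17 (adjusted p = 0.02). These use the same CD14-deficient LPS arrays as the genotype values. All 3 calls were lost with no filter, with the compared arrays alone or without any of the 4 thapsigargin arrays, those of Il10ra and Tyk2 also without either wild-type LPS array, and that of Tyk2 also on unscaled values (adjusted p from 0.056 for Pycard to 0.369 for Tyk2).

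None of the 2 tested IL-6 family ligands was called between the genotypes (median -0.38), with Lif at 0.019 ± 0.64 and Clcf1 at -0.79 ± 0.39. None of the 2 tested members of the IL-10 family and regulator list was called either (median -0.97), with Nfil3, a transcription factor that represses cytokine genes, at -1.51 ± 0.53 (limma, adjusted p = 0.139) and Dusp1, a phosphatase of MAP kinases, at -0.42 ± 0.33 (adjusted p = 0.443). The 5 list genes called between the genotypes (Tnfrsf1b, Casp4, Pycard, Il10ra and Tyk2) lost the call without either wild-type LPS array or any of the 4 thapsigargin arrays, with adjusted p values from 0.0954 to 0.261, and kept their direction. They also lost it with no filter (0.0572 to 0.0924) or with the compared arrays alone (0.357 to 0.42), and Il10ra on unscaled values (0.0544).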

How the data were processed

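The 10 arrays are Affymetrix mouse arrays, 1 per condition, hybridised from 0.3 µg of total RNA. The deposited values are linear intensities made by the authors with MAS5, per the submitters' processing notes. Neither the MAS5 version nor the level it scaled to is given in the sources used here. Each array was scaled to 1 trimmed mean (2% trimmed from each end; deposited trimmed means 444 to 553, target 509), floored at 13.4 and put on the log2 scale. Of 22690 probe sets, 20380 had 1 gene symbol, 691 several and 1619 none. The probe set of highest mean stood for each gene, and genes above 99.2, the pooled median, on at least 2 arrays were tested. Differences were fitted with limma 3.58.1 (R 4.3.3) over the 6 combinations of genotype and treatment plus a term for 60 against 48 h, with an intensity trend, 3 residual degrees of freedom and Benjamini-Hochberg adjustment over all tested genes at 0.05. The procedure was also run on simulated data with independent noise of the same spread per gene on every array. Such data hold no departures of a condition from the common time shift, so they cannot show how those affect the calls. The cytokine genes, named genes and pathway lists were chosen with earlier results of these data known. Genes named from a list are the 2 of largest change among those called, or else the 2 of smallest p. The alternatives were other scalings, floors, filters and models, each stimulated array left out, the arrays compared alone, and pairing by treatment and time. The 2 unstimulated arrays, 1 per genotype, could not be left out.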

Additional observations from a re-analysis of the deposited data

Results flagged for a closer look

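For Tnf the LPS response had opposite signs in the genotypes. In CD14-deficient cells the log2 change from the unstimulated array was -1.62 at 48 h and -0.21 at 60 h, against 0.25 and 1.13 in wild-type cells. The fitted difference of the responses was -1.60 ± 0.66, with an adjusted p of 0.61 (limma) and an unadjusted p of 0.0516. The changes at 60 h without CD14 and at 48 h in wild-type cells were only 1.15-fold and 1.19-fold, and neither genotype's response was called. How many genes had such opposite signs was not counted. Each genotype's values share 1 unstimulated array.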

How the results depend on the processing

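No paired analysis was possible because the labels give no replicate numbers, except one that paired the genotypes by treatment and time over the stimulated arrays. Over the 7 cytokine genes and 10 comparisons, 1376 values were recomputed under alternatives: 1233 kept their direction and side of the threshold, 48 passed it, 46 lost it and 49 changed sign. For 15 list genes 271 of 355 values were kept, 14 passed, 64 lost the call and 6 changed sign. The cause of these changes was not tested. The fits without the 2 arrays of low cRNA yield, the paired fit and the comparison over all stimulated cells were added after seeing the data. Without those 2 arrays, a CD14-deficient LPS array at 60 h faces a wild-type one at 48 h, and the error comes from the thapsigargin arrays alone. Counts called in those fits carry this limit. Fitting the arrays compared alone left no residual degrees of freedom for the LPS responses within a genotype.
The genotype comparison with LPS called 2 of the 7 genes. It called 1 with no floor, with a filter on 5 arrays (Il10 was then not tested), with every probe set tested or with no time term, and 0 with no filter or with the compared arrays alone. It called 4 without the 2 arrays of low yield, and 0 to 4 as each array was left out in turn. The numbers of all genes called ran from 2 to 3269 around 387. Tnf passed on unscaled values (adjusted p = 0.0452). The LPS response of wild-type cells called 4 genes, and 3 to 5 under the alternatives. The LPS response of CD14-deficient cells called 3 genes, and 3 to 6 as each array was left out. Differences of the responses called 0, but 2 without the low-yield arrays and 0 to 3 as each array was left out. Thapsigargin in CD14-deficient cells called 0, but 5 without those arrays and 0 to 3 in the leave-outs. The difference of thapsigargin effects called 0, but 3 without those arrays and 0 to 2 in the leave-outs. The genotypes with thapsigargin called 0, but 3 without those arrays and 3 with the compared arrays alone, and over all stimulated cells 2, but 0 with no filter, every probe set or no intensity trend, 1 with no time term, 1 when paired by treatment and time, 5 without those arrays and 0 to 5 in the leave-outs. Of all genes, the calls ran from 179 to 3736 around 1191 (LPS in wild type), 22 to 2867 around 312 (LPS in CD14-deficient cells), 0 to 1352 around 0 (their difference), 0 to 3253 around 495 (thapsigargin in CD14-deficient cells), 0 to 1205 around 4 (in wild type), 0 to 1878 around 0 (their difference), 1 to 426 around 2 (genotypes with thapsigargin), 0 to 98 around 0 (time) and 3 to 2777 around 153 (all stimulated cells).
Signs turned without the 2 low-yield arrays for the LPS response of Il1rn in CD14-deficient cells (0.527), for thapsigargin in wild-type cells on Tnf (0.401) and Il1b (0.104), for the difference of thapsigargin effects on Il1b (-0.103), for the time shift of Il6 (0.136) and Il1rn (-0.19), and for the genotype change of Lif (-0.78). Unscaled values turned the difference of LPS responses of Il6 (0.088) and the time shifts of Il6 (0.02), Il1b (0.024) and Il18 (0.013). Quantile normalization turned the time shifts of Il6 (0.006) and Il1b (0.025), the genotype change of Il18 over stimulated cells (-0.019) and that of Lif with LPS (-0.07). Median scaling turned the thapsigargin change of Il18 in CD14-deficient cells (0.027), the difference of thapsigargin effects on Tnf (0.005), the time shift of Il1rn (-0.043), and the genotype changes of Il18 over stimulated cells (-0.03) and Lif with LPS (-0.113).
As each array was left out in turn, ranges crossed 0 for the LPS response of Il1rn in CD14-deficient cells (-1.007 to 0.581) and the difference of LPS responses of Il6 (-0.745 to 0.504). So did thapsigargin in CD14-deficient cells on Tnf (-0.729 to 0.378), Il10 (-0.418 to 1.433) and Il18 (-0.421 to 0.323). Thapsigargin in wild-type cells gave -0.336 to 0.286 for Tnf, -0.156 to 0.504 for Il6, -0.232 to 0.124 for Il1a, -0.176 to 0.065 for Il1b and -0.13 to 0.686 for Il1rn. The difference of these effects gave -0.704 to 0.403 for Tnf and -0.735 to 0.008 for Il18. The genotype change with thapsigargin gave -0.571 to 0.014 for Il1rn and -0.53 to 0.214 for Il18. The time shift gave -0.25 to 0.227 for Il6, -0.298 to 0.303 for Il1rn and -0.238 to 0.094 for Il18. The genotype change with LPS gave -1.149 to 1.187 for Lif and -1.021 to 0.175 for Dusp1, and that over all stimulated cells -0.162 to 0.21 for Il18.
Low signals limit Il10, which lay near the floor in unstimulated cells and was under the filter on 7 of 10 arrays.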
